A study of Mus musculus with 8 samples.

Results

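Hi-ChIP maps contacts between distant stretches of chromatin at the sites where a chosen protein is bound. The loops described here were listed for both FOXA1 and HNF4G in the cell line from a KPC primary pancreatic tumour and for neither factor in the cell line from a liver metastasis. A loop is an identical pair of anchors, the mm10 intervals that its 2 ends cover, so the members were chosen by presence and absence in the 4 loop lists themselves. This left 6168 loops of the 249200 distinct loops in all lists, or 2.48%. They made up 5.92% of the 104136 FOXA1 tumour loops and 8.08% of the 76323 HNF4G tumour loops.

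KPC is a genetically engineered mouse model that develops ductal tumours of the pancreas, which spread to the liver. The series held 8 mouse samples, with 2 replicates each of FOXA1 tumour, HNF4G tumour, FOXA1 liver mets and HNF4G liver mets. All were labelled WT and untreated, and both lines were grown in the same medium. The study describes the lines as a matched pair, so the tumour and the metastasis were each represented by 1 line. Each group had 1 loop list for both replicates together, so the spread between replicates could not be measured and the read depth behind a loop was unknown. Intervals below are 95% intervals and cover counting error only.

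FOXA1 is a forkhead pioneer factor that opens chromatin in endodermal tissues, where it binds enhancers of epithelial genes. HNF4G is a nuclear receptor of the HNF4 family with a role in gut and pancreatic epithelium, and the family shares many target sites with forkhead factors. A loop between an enhancer and a promoter is one way by which a bound factor can reach a distant gene. All 7 ductal epithelial markers, which include the keratins Krt7, Krt8, Krt18 and Krt19, had a transcript start within 2 kb of an anchor. None of the 3 acinar or the 2 endothelial markers did, and 2 of 5 fibroblast markers (Col1a1 and Pdgfra) and 1 of 3 leukocyte markers did. In longer gene lists, 20 of 30 epithelial and classical subtype genes and 21 of 26 basal, squamous and mesenchymal genes had such a start. A start near an anchor thus did not set epithelial from mesenchymal genes apart and is no check of the cell type.

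The edges of the anchors lay at sites of the restriction enzyme, which does not show how the anchors were chosen. All 30542 distinct anchors had both edges within 4 bases of a GATC, the DpnII site, in the GRCm38 sequence, which also fixed the build. Letters of the FOXA motif (TGTTTAC or TATTTAC) and of the HNF4 motif (CAAAGTCCA or CAAAGGTCA) were searched on both strands. The windows below come from anchors of strong loops or with many member loops, and they show where in those anchors such letters lay, in capitals, on the plus strand of mm10. The Met window lies in an intron of Met, and its intergenic partner window is in the anchor at the other end of the same loop. The Gadd45b window is intergenic, 7.40 kb from the start of that gene. The Cbx8 and Gm26888 windows hold an HNF4 match, the first intergenic and the second in an intron of Tbc1d16. The Sox9 window lies in an intron of BC006965, and the Eif4a3 window in an intron of the neighbouring gene Gaa.
Met (chr6:17465257-17465363): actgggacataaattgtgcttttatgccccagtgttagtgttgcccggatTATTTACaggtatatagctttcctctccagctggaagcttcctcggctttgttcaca
Intergenic partner of Met (chr6:17052112-17052218): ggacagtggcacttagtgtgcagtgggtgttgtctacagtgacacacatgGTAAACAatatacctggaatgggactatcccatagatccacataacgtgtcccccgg
Gadd45b (chr10:80938162-80938268): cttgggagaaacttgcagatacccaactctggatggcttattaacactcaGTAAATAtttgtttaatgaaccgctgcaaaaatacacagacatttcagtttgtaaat
Cbx8 (chr11:119042052-119042160): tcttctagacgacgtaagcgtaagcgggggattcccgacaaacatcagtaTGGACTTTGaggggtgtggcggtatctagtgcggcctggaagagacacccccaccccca
Gm26888 (chr11:119149685-119149793): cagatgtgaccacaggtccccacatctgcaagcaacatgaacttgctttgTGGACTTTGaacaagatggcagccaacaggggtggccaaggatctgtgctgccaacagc
Sox9 (chr11:112780932-112781038): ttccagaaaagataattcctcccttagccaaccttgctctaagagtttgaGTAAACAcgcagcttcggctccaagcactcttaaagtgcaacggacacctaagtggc
Eif4a3 (chr11:119284783-119284889): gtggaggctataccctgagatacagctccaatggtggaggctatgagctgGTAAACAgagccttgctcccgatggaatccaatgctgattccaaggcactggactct

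These letters were no more frequent at the loops' anchors than elsewhere. In the central 1 kb, 27.8% of the 9109 anchors with a member loop held a FOXA match (interval 26.9 to 28.7), against 31.7% of all 30542 anchors and 29.96% of the 12258 anchors of loops found only in both liver mets lists. An HNF4 match was present at 3.66% of the members' anchors and at 3.64% of all anchors. Promoter anchors held a FOXA match less often in all sets, 23.95% over all promoter anchors against 38.1% over the others, and the members' anchors had 21.7% and 34.5% in these classes. The median GC content of the central 1 kb was 51.1% at the members' anchors and 49.1% at all anchors. Within a loop, 46.1% of members had a FOXA match at 1 or both anchors, 7.64% had an HNF4 match, and 2.17% had FOXA at one end and HNF4 at the other, against 48.3%, 7.04% and 2.05% of all distinct loops.

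The question of the first comparison was how far the tumour line had loops of both factors that the metastasis line lacked. Of the 29534 loops found in both tumour lists, 20.9% were absent from both liver mets lists (interval 20.4 to 21.4). A further 13168 loops, or 44.6%, were in all 4 lists, 23.0% were also in the FOXA1 liver mets list and 11.5% also in the HNF4G liver mets list. The converse set, in both liver mets lists and in neither tumour list, held 9083 loops or 25.98% of 34963. There were thus 0.679 tumour-line shared loops for each metastasis-line shared loop (0.657 to 0.701). The FOXA1 liver mets list was also the longest of the lists, with 125623 loops, and the HNF4G liver mets list held 78098, so list length moved with this ratio and its part in it was not tested.

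**Figure D1:**
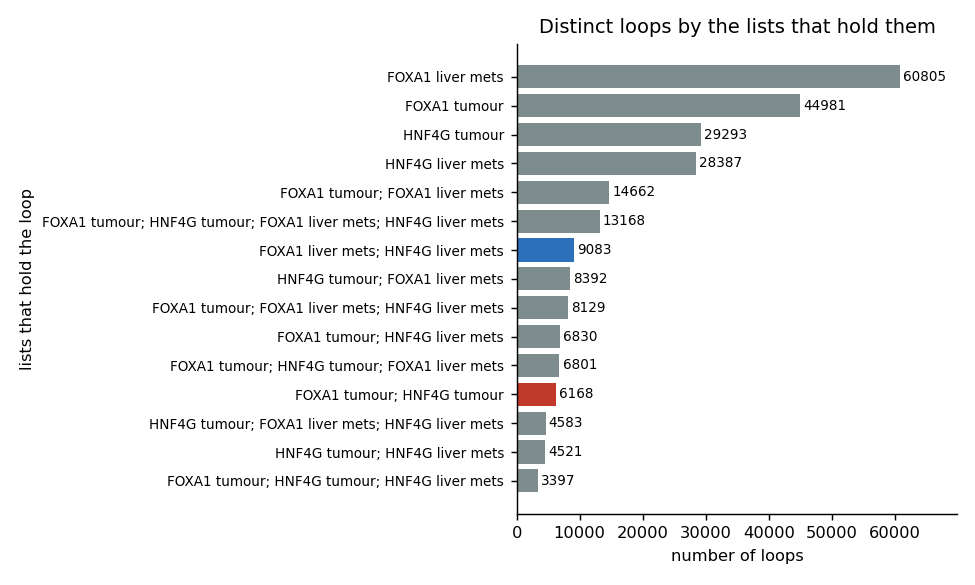
Number of distinct loops (x axis) for each combination of lists that hold them (y axis); red marks the 6168 loops in both tumour lists only and blue the 9083 in both liver mets lists only. The red bar is shorter than the bars of both combinations that pair different factors from different lines (8392 and 6830).

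Most members joined anchors that were also in use in the metastasis line. Both anchors had other loops in both liver mets lists in 5842 members, or 94.7%, and only 24 members (0.389%) had an anchor with no loop in either liver mets list. The converse set was alike, with both anchors in use in both tumour lists in 92.7% of its loops, and 81.4% of all anchors had loops in all 4 lists. That the pairs themselves were absent from the liver mets lists is what the rule required. Some pairings had a close neighbour in the other line. When a liver mets loop with both anchors within 5 kb counted as the same loop, 3591 members (58.2%) still had none, and 58.0% of the metastasis-line shared loops had no tumour loop by the same rule.

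Both factors would share some loops if each list drew its anchor pairs independently, so the number expected was taken from the list sizes within 8 ranges of span, over anchor pairs absent from the liver mets lists. The observed 6168 loops were 1.51 times the 4090 expected (1.47 to 1.55). Between 5 and 10 kb the 122 loops were 1.16 times the 105 expected, with a Poisson interval (0.962 to 1.38) that included 1. This interval takes no account of the fixed list sizes and is too wide at short span. It does not show that an excess was absent. The ratio was 1.24 at 20 to 50 kb, 1.48 at 100 to 200 kb and 1.80 at 200 to 500 kb. At 1000 to 2000 kb, 220 loops stood against 84.6 expected, a ratio of 2.60 (2.27 to 2.97). The ratio was thus highest in the longest range, while the number beyond the expected was larger at 200 to 500 kb, where 1495 loops stood against 829 expected. At short span list size bounds this ratio, since at 5 to 10 kb the HNF4G tumour list held 216 of only 642 anchor pairs. Odds ratios rose less steeply. They were 1.60 at 5 to 10 kb, 1.47 at 10 to 20 kb and 2.71 at 1000 to 2000 kb.

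**Figure D2:**
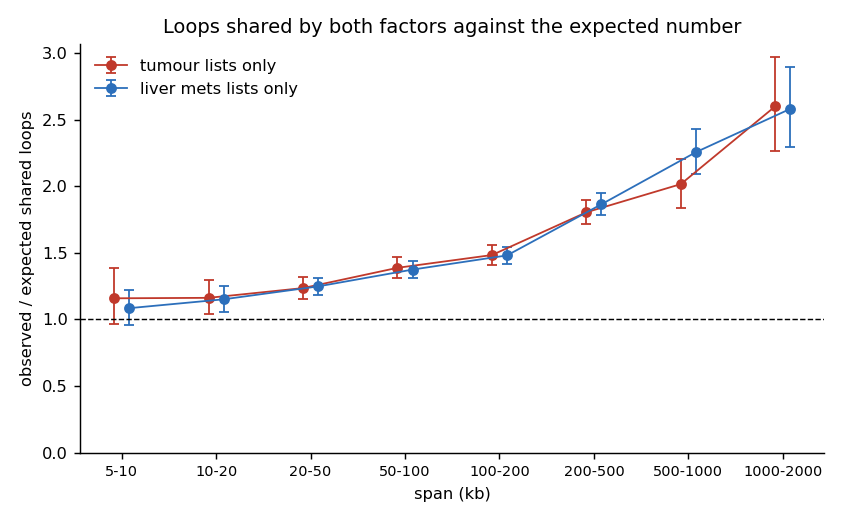
Observed over expected number of loops shared by both factors (y axis) by span in kb (x axis), for the tumour line (red) and the liver mets line (blue); bars are 95% Poisson intervals and the dashed line is 1. Both lines rise from 1.16 and 1.08 at 5 to 10 kb to 2.60 and 2.58 at 1000 to 2000 kb.

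Every other pair of lists also shared more loops than expected. The metastasis-line shared loops gave 1.495 (1.46 to 1.53). A pair of lists that differed in factor and line, FOXA1 tumour with HNF4G liver mets, gave 1.49 (1.45 to 1.52), and HNF4G tumour with FOXA1 liver mets gave 1.52 (1.49 to 1.55). FOXA1 in both lines gave 1.49 and HNF4G in both lines 1.65 (1.60 to 1.70). These 6 values share lists with each other and were set side by side without a test of their differences.

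The members were of intermediate length. Their median span was 134 kb (128 to 138), with quartiles at 58.4 and 279.9 kb, and 58.9% spanned 100 kb or more. Loops of the metastasis line shared by both factors had a median of 115 kb (111 to 119). Loops in all 4 lists were far shorter, with a median of 29.8 kb, and those in the FOXA1 tumour list alone (339 kb) or the HNF4G tumour list alone (375 kb) were longer. By range, 24.2% of members spanned 200 to 500 kb, 23.3% spanned 100 to 200 kb, and 3.57% spanned 1000 to 2000 kb.

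A promoter anchor, defined as one with an annotated transcript start within 2 kb, was present at 1 or both ends of 4720 members, or 76.5% (75.4 to 77.6). In 2076 members (33.7%) both anchors were promoter anchors, in 2644 (42.9%) 1 was, and in 1448 (23.5%) neither was. Over the 12336 loop ends, 55.1% lay at promoters, 8.86% in other exons, 15.7% in introns and 20.4% between genes. Over all distinct loops, 72.7% had a promoter anchor at 1 or both ends and 50.4% of ends lay at promoters.

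Members had promoter anchors more often than the loops shared by both factors in the metastasis line, of which 68.7% had one. The odds ratio within span ranges was 1.45 (1.35 to 1.57), and it was 1.41 (1.31 to 1.51) for promoters at both ends. Loops of a single list differed in the same direction but by less: 72.1% of loops in FOXA1 tumour alone against 70.5% of those in FOXA1 liver mets alone had a promoter anchor, an odds ratio of 1.09 (1.06 to 1.123), and HNF4G alone gave 77.4% against 74.0%, or 1.18 (1.13 to 1.22). These intervals treat loops that share anchors as separate, and the difference between the odds ratios was not tested. Without regard to span, the share was 77.9% for loops only in both HNF4G lists and 67.9% for those only in both FOXA1 lists. It was 74.2% for HNF4G tumour with FOXA1 liver mets and 72.3% for FOXA1 tumour with HNF4G liver mets. A high share was thus not particular to the members. Against loops in all 4 lists the members' odds ratio was 0.827 (0.762 to 0.898), so members had promoter anchors less often at equal span. Against loops of FOXA1 tumour alone it was 1.46, and against HNF4G tumour alone 1.13 (1.05 to 1.21).

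**Figure D3:**
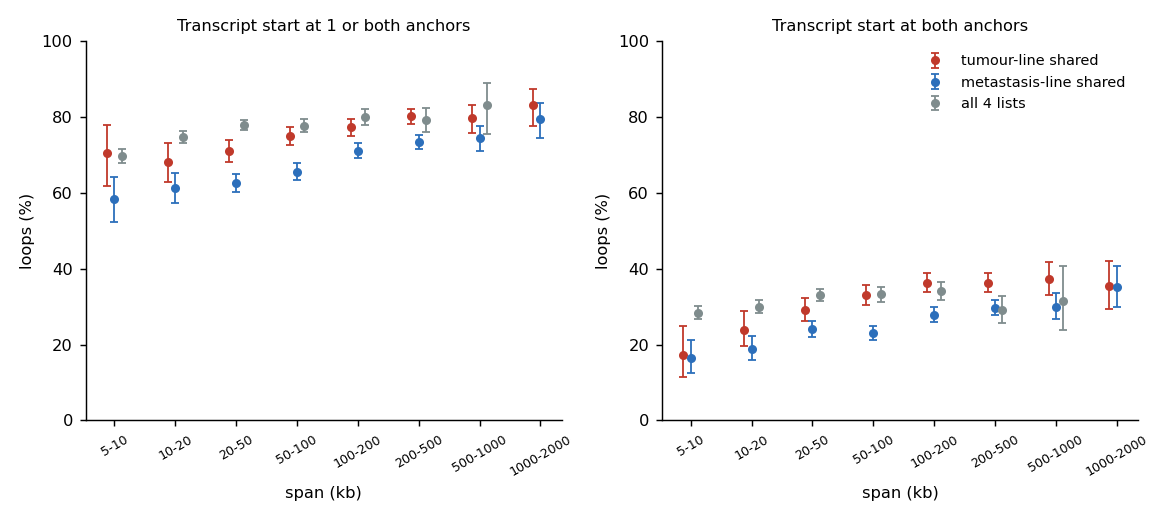
Share of loops (y axis, %) with a transcript start within 2 kb at 1 or both anchors (left) or at both anchors (right), by span in kb (x axis), with 95% Wilson intervals; sets with fewer than 20 loops in a range are not drawn. At 50 to 100 kb, 75.1% of tumour-line shared loops (red) and 65.6% of metastasis-line shared loops (blue) had 1 or both.

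Many loops between a promoter anchor and another anchor passed over a further promoter anchor, and the share grew with span. Of the 2644 members with 1 promoter anchor, 666 (25.2%) had no other promoter anchor between their ends (23.6 to 26.9), against 27.3% of the metastasis-line shared loops and 56.4% of the shorter loops in all 4 lists. At 20 to 50 kb the share was 55.9% for members and 56.1% for metastasis-line shared loops, and at 200 to 500 kb it was 7.90% and 5.61%. The shorter spans of the loops in all 4 lists move with this difference.

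The value given for each loop, read as the −log10 of an adjusted p, was under 2 in both lists for most members. Its median was 1.42 in the FOXA1 tumour list and 1.57 in the HNF4G tumour list. A value of 1.3 or more was reached by 3276 of the 6168 members in the FOXA1 tumour list and by 3527 in HNF4G tumour. The other members fell below it in the list concerned. On this reading, being listed for a factor thus does not mean significance at a usual threshold. A single tied value near the bottom of each list was held by 19.3% and 21.1% of members. The loops in all 4 lists had lower medians, 0.669 and 0.535, but more of them had high values. A value of 2 or more in both lists was reached by 83 members (1.35%), against 7.61% of the loops in all 4 lists, and 3 members reached 4 in both. At or above the higher tied value in both lists, 556 members remained, with a median span of 868 kb and 1 anchor with 5 or more of them. Values chose none of the members, and the lists hold tied values of different size, so the same value need not mean the same evidence in both.

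The 15 members with the highest value in the lower of their lists were all 183 kb or longer, with a median span of 443 kb. Values moved with span. The member loop of Prmt1 to Ap2a1, at 78.2 kb, held the lower tied values of both lists, 0.123 and 0.171. That of Krt19 to an exon of Krt20, at 717 kb, held the higher ones, 1.91 and 1.99. A ranking by value thus tends to pick long loops, so the length of these 15 is no separate result. Of these, 6 joined promoter anchors, 8 joined a promoter anchor to another anchor and 1 had no promoter anchor. The loop from Zfp623, a zinc finger gene, to Plec, which encodes the cytolinker plectin, spanned 261 kb on chromosome 15 and had 5.12 and 5.50. Close in value was a loop of 183 kb on chromosome 17 from an intergenic anchor to the start of AC132455.2, with 4.601 and 7.31. Both had values above 4 in both lists.

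Loops at Met, Sox9, Fosl2 and Hoxa9 with Hoxa10 were among the others. The start of Met, the receptor of hepatocyte growth factor (chr6:17461651-17466299), was joined to an intergenic anchor (chr6:17050360-17054216) 412 kb away, with values of 3.46 for FOXA1 and 5.93 for HNF4G. Both anchors hold a FOXA match in the windows printed above. The start of Sox9, a ductal and progenitor transcription factor, was joined over 310.4 kb to an intron of the noncoding gene 2610035D17Rik, with 5.37 and 3.44. Fosl2, an AP-1 subunit, was joined to an intergenic anchor at 558 kb with 3.62 and 3.89. The shared start of Hoxa9 and Hoxa10, homeobox genes of body patterning, was joined to an intron of Hibadh at 348 kb with 5.54 and 3.54. In each of these loops both values were above 3, while the order of the factors differed between them.

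The remaining strong loops were of the same length class. Flnc, a filamin, met the noncoding gene Rncr4 at 742 kb (3.79 and 3.92). The start shared by Mindy1, a deubiquitinase, and Prune1 met that of Car14, a carbonic anhydrase, at 625 kb (3.70 and 3.94). Gm13056 met Ddi2, a protease gene, at 443 kb with 3.52 for FOXA1 and 8.94 for HNF4G, the widest difference among the 15. Irf2bp2, a transcriptional corepressor, met Gm31718 at 283 kb (5.32 and 3.46). The others joined Kif26b to an exon of Smyd3, an intron of Rassf8 to an intergenic anchor, Gm49645 to an intergenic anchor, and Cd81 with Tssc4 to an intergenic anchor, over 395 to 523 kb.

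**Figure D4:**
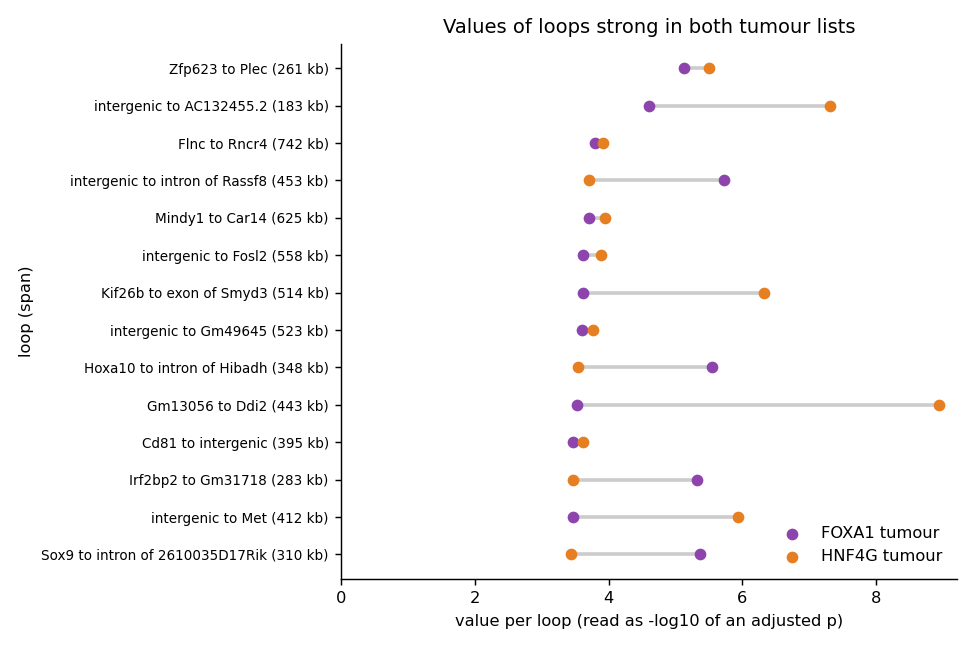
Value per loop (x axis, read as −log10 of an adjusted p) in the FOXA1 tumour list (purple) and the HNF4G tumour list (orange) for 14 of the 15 loops with the highest lower value (y axis, with the span); grey bars join the values. The Gm13056 to Ddi2 loop has the widest difference drawn, 3.52 against 8.94.

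Member loops were spread over many anchors, and few anchors held several. Of the 9109 anchors with a member loop, 6695 had 1, 610 had 3 or more and 46 had 5 or more. The metastasis-line shared loops, which were more numerous, gave 101 anchors with 5 or more. Anchors with 5 or more member loops were wide, with a median width of 4770 bp against 2335 bp for all anchors, and had a median of 55 distinct loops against 14. Promoter anchors made up 67.4% of them (53.0 to 79.1), against 45.2% of all anchors. Anchor width and the number of loops of any kind thus moved with the number of member loops, and their part in it was not tested.

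The anchor at the start of Gadd45b, a stress-induced growth arrest gene, held more member loops than any other (chr10:80930278-80941621). It had 10, against 1 metastasis-line shared loop, among 76 distinct loops, a share of 13.2%. Over all anchors with 20 or more distinct loops, members made up 2.65% of loop ends. The Gadd45b anchor was picked for its member count among all anchors, so its high share and its gap follow in part from that choice. Of its partners 8 were promoter anchors. On the side of lower coordinates these were Arid3a at 999.9 kb, Midn at 786 kb and Cirbp at 773 kb, and on the other side Map2k2, the MEK2 kinase, at 170.1 kb, Zbtb7a at 201 kb, Pias4 at 233 kb, the shared anchor of Pip5k1c and Tjp3 at 356 kb and Gipc3 at 406 kb. The loop to Zbtb7a, a zinc finger repressor, had the highest lower value of the 10, with 2.94 for FOXA1 and 3.20 for HNF4G. A nearby anchor in an exon of Zbtb7a, at 209 kb, was joined to Gadd45b in both liver mets lists, with 1.47 and 3.25. The FOXA1 tumour list also held that loop, with 2.98. A second start anchor of Map2k2, at 194 kb, was joined to Gadd45b in both FOXA1 lists, with 2.91 in tumour and 1.46 in liver mets. The Gadd45b anchor had 32 loops in the FOXA1 tumour list, 34 in HNF4G tumour, 36 in FOXA1 liver mets and 23 in HNF4G liver mets, so it was in use in all 4 lists.

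The anchors of Aes, Cbx8 and Eif4a3 had 7 member loops each. That of Aes, a corepressor of the Groucho family, had 6 promoter partners, which included Nfic at 108 kb, Tjp3 at 283 kb and the shared anchor of Cnn2 and Tmem259 at 1579 kb. Other start anchors of Nfic, at 153 kb, and of Tjp3 with Pip5k1c, at 273 kb, were joined to Aes in all 4 lists. The member loops thus do not show contacts with these genes that the metastasis line lacked. The anchor of Cbx8, a Polycomb chromobox gene, had no metastasis-line shared loop, and its loops numbered 37 in the FOXA1 tumour list, 69 in HNF4G tumour, 34 in FOXA1 liver mets and 25 in HNF4G liver mets. Its member partners included Gm26888 at 109 kb, Lgals3bp, a secreted glycoprotein gene, at 640.2 kb, and a second start anchor of Eif4a3 at 259 kb. The Eif4a3 anchor with 7 member loops lay 245 kb from Cbx8, and that pair was no member, since the HNF4G liver mets list also held it. Eif4a3 encodes the helicase of the exon junction complex, and this anchor had 2 metastasis-line shared loops and a member loop to Rptor, the mTORC1 subunit, at 372 kb. Other start anchors of Rptor were joined to it at 317 kb in the FOXA1 liver mets list and at 571 kb in both HNF4G lists. The member loop thus does not show a contact with Rptor that the metastasis line lacked. The highest single value in the member loops of these anchors, 10.6 for HNF4G, was in a loop of Eif4a3 to an intergenic anchor 233 kb away, where FOXA1 had 1.70.

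**Figure D5:**
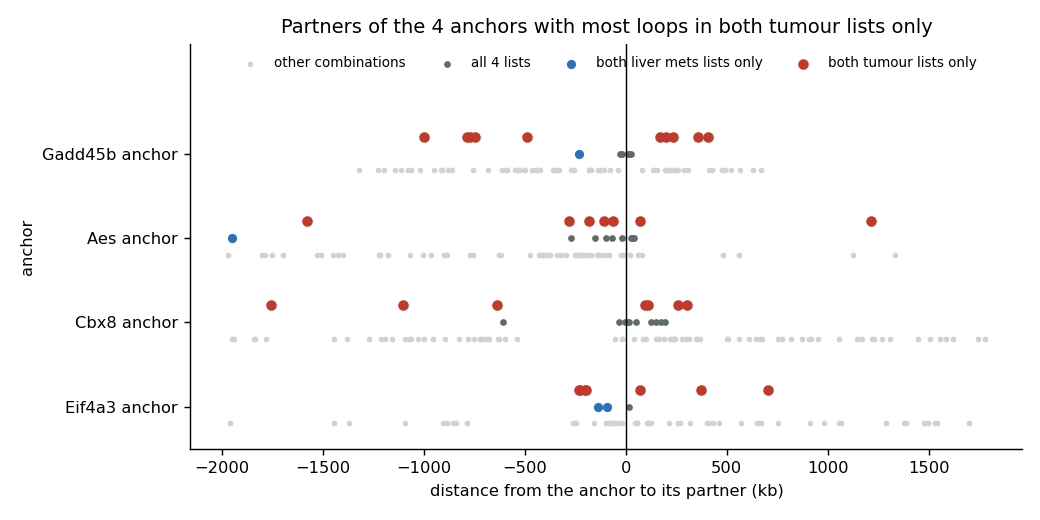
Distance in kb (x axis) from the anchors of Gadd45b, Aes, Cbx8 and Eif4a3 (y axis) to each of their partners, with partners at lower coordinates to the left of 0; red are loops in both tumour lists only, blue in both liver mets lists only, dark grey in all 4 lists and pale grey in other combinations. The 10 red partners of Gadd45b lie at 170.1 to 999.9 kb, farther than its loops in all 4 lists.

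The other anchors among the first 10 had 6 member loops each. They were at the starts of Ptges, a prostaglandin E synthase (chr2:30896320-30901209), Srcin1, an inhibitor of Src (chr11:97573785-97576541), the noncoding gene Gm26888 and Tmem151b, in an exon of Efna2, an ephrin ligand, and in an intron of Baiap2. Tmem151b had no metastasis-line shared loop, and the others had 1 or 2. By the largest excess over metastasis-line shared loops, 3 further anchors entered, each with 5 member loops and none of the other kind: the start of Gm36970, an intron of Sox13 and an intergenic anchor (chr3:89491599-89494317). By share, an intergenic anchor (chr8:94713887-94716788) led with 4 of 20 distinct loops, or 20%, and Gm36970 (18.5%), Hnrnpf (18.2%), Stx1a (17.9%) and AC131756.1 (17.4%) followed. With 4 or 5 loops behind each, these shares rest on small counts and were ranked by their size.

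Where loops shared anchors they formed chains. The 6168 loops fell into 3014 connected groups, of which 1988 were a single loop and 57 had 10 or more anchors. The largest held 146 anchors on chromosome 19 (chr19:3671945-7608845), and 115 of these were promoter anchors. A group of 144 anchors on chromosome 11 (chr11:115764817-121130812) held the Cbx2, Cbx8, Eif4a3 and Rptor loops, and 1 of 85 anchors on chromosome 10 (chr10:78424610-82781540) held those of Gadd45b. Closed triangles, in which 3 anchors were all joined to each other, numbered 24, against 84 among the metastasis-line shared loops.

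Along the genome, 1135 of the 1964 windows of 1 Mb with a loop had a member. The most, 63, were at chr11:119000001-120000000, where there were 43 metastasis-line shared loops and members made up 4.32% of 1460 distinct loops. The next were chr19:4000001-5000000 with 59 (51 metastasis-line shared), chr11:120000001-121000000 with 58 (66), chr10:80000001-81000000 with 55 (62) and chr19:5000001-6000000 with 50 (70). Members made up 3.11%, 2.91%, 2.72% and 2.34% of the distinct loops in these, against 2.48% over all loops. Of these 5 windows only the first and second had more members than metastasis-line shared loops. By chromosome, members were 2.76% of the distinct loops on chromosome 11 (2.57 to 2.95) and 2.71% on chromosome 19 (2.49 to 2.95), both above the overall 2.48%, and 1.65% on chromosome 14 (1.31 to 2.07) and 1.93% on chromosome 18 (1.53 to 2.42), both below it. Relative to metastasis-line shared loops, chromosome 11 held 1.20 times the share (1.09 to 1.32), and chromosomes 7, 14 and 18 held 0.858, 0.630 and 0.647 times, with intervals that left out 1. With 20 chromosomes compared, an interval of this kind can leave out the overall value by counting error alone.

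Gene by gene, 4203 of the 10785 protein-coding genes with a promoter anchor had 1 or more member loop there, or 39.0%, and 44.1% had 1 or more metastasis-line shared loop. More member than metastasis-line shared loops were found at 2368 genes (22.0%). Bcar3, an adaptor of integrin signalling, had 11 member loops over its 5 promoter anchors, against 5 metastasis-line shared. Lmna, which encodes lamins A and C, and Snx15, a sorting nexin, had 10 each, against 7 and 11. Genes with several promoter anchors collect loops from each of them, which moves with these counts. Genes chosen here after their values were seen, for a wide gap, were Rnf213, an E3 ligase, and Sema3f, a semaphorin, with 7 against 1 each, and Bicdl2 and the calcium channel gene Cacna1a with 6 against 0 each.

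Among lists of genes known in this cancer, the share with a member loop was read against the 39.0% of all such genes. Many genes named from a list were those with its highest member counts. A gap over metastasis-line shared loops at such a gene follows in part from that choice. The lists also differed from all genes in loops of any kind: the median gene had 42 distinct loops in the immediate early list, 36.5 in the epithelial, 28 in the endodermal, 15 in the cell cycle and 13 in the driver list, against 16 over all 10785 genes, and the part of this in the shares was not tested. The median number of member loops per gene was 2 among the ductal markers, 1 in the epithelial, immediate early, cell cycle and coregulator lists and 0 over all genes. Of 20 epithelial and classical subtype genes with a promoter anchor 13 had a member loop, and 14 had a metastasis-line shared loop. Muc1, the membrane mucin, had 4 of each kind at a start anchor shared with Mtx1 and Thbs3. Member partners of that anchor included Efna3 at 91.6 kb, with 0.128 for FOXA1 and 4.797 for HNF4G. The shared anchor of Ash1l and Dap3 at 280.0 kb was another. Krt8 and Krt19 had 3 members each, against 4 and 2 metastasis-line shared, and Krt8 was joined to an exon of Krt7 at 585 kb. Cdh1, which encodes E-cadherin, had 2 against 3. All 7 ductal markers had loops of both kinds.

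Of 23 endodermal and ductal transcription factors 11 had a member loop and 15 a metastasis-line shared loop, with 13 loops of the first and 26 of the second kind in all. Sox9 had 2 member loops against 1, both members to introns of 2610035D17Rik. Hnf4g itself had 1 against 0, to an intergenic anchor 256 kb away, with 1.74 for FOXA1 and 1.86 for HNF4G. This count rests on only 2 distinct loops of Hnf4g in all lists. Foxa1 had no member among 21 distinct loops. Foxa3, a paralog of Foxa1, had 1 against 1 at a start anchor shared with Sympk. The member loop of that anchor led to Fosb over 283 kb, with 1.78 for FOXA1 and 5.62 for HNF4G. Klf5, a factor of the gut epithelium, had 1 against 2 and was joined to an intergenic anchor at 341 kb with 3.38 and 3.49.

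Of 19 AP-1 and immediate early genes 11 had a member loop and 13 a metastasis-line shared loop. Fosb, Fosl1, Ier2 and Dusp1 had 3 members each, against 0, 4, 2 and 2 metastasis-line shared loops. Fosl1, an AP-1 subunit tied to invasive growth, was joined to Ap5b1, Pcnx3 and Atg2a at 121, 238 and 816 kb, and Ier2 to Nfix at 138 kb and to Cacna1a at 273 kb. Maff, a small Maf factor, had 1 of each kind and was joined to Kcnj4 at 158 kb with 1.51 for FOXA1 and 6.58 for HNF4G. Of the 9 member loops of Fosb, Fosl1 and Ier2, 8 ended at another promoter anchor.

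Of 20 EGF receptor and RAS pathway genes 9 had a member loop, against 14 with a metastasis-line shared loop. Met and Tgfa, which encodes an EGF receptor ligand, had 3 members each against 1 each, and Erbb2 had 2 against 3, one of the members to Cdk12 at 213 kb with 1.66 and 3.22. Of 19 cell cycle genes 11 had a member loop and 10 had the other kind. Ccnd1, which encodes cyclin D1, had 4 member loops against 5, the members all toward higher coordinates, at 115 to 372 kb. Cdkn1a, the p21 gene, had 1 against 0 and was joined to an intergenic anchor at 302 kb with 1.79 and 3.52.

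The driver genes and the basal genes were close to the share of all genes. Of 19 pancreatic cancer driver genes 7 had a member loop (36.8%) and 9 a metastasis-line shared loop. Summed over these driver genes, there were 10 member loops against 18 metastasis-line shared loops. Arid1a, a chromatin remodelling subunit, had 3 members against 2 metastasis-line shared loops, and Trp53 had 2 against 0, at 538 and 496 kb. In the other direction, Rnf43 had 0 against 5 and Cdkn2a 1 against 3. Myc had 1 against 3, and its member loop joined it to an intergenic anchor at 479 kb with 3.64 for FOXA1 and 1.98 for HNF4G. Of 21 basal, squamous and mesenchymal genes 8 had a member loop (38.1%) and 10 the other kind. Itgb4, the integrin of hemidesmosomes, had 4 members against 2. Of 19 coregulators of FOXA1 and HNF4, 11 had a member loop and 10 the other kind, and Nrip1, a nuclear receptor corepressor, led with 3 against 0. No list was tested as a set, since the lists were chosen with results of these data known.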

How the data were processed

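Hi-ChIP loop lists of 8 mouse samples in 4 groups were used, 1 list for each group covering both replicates. How the authors joined the replicates, how anchors were found and how many read pairs a loop needed are not given in the sources used here. The authors aligned reads to mm10 with HiC-Pro (version 3.1.0 per the labels), removed duplicates, assigned reads to DpnII fragments and called loops with hichipper. The value deposited for each loop has no name and was read as −log10 of an adjusted p-value, from its values alone. The display score deposited beside it followed from the value alone in every loop, so it was not used further. Total counts per library were unknown, and the 2 replicates had no values of their own.

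Loops were matched by identical anchor coordinates. Spans were measured between anchor midpoints, and coordinates are given 1-based. Transcript starts were taken from GENCODE M21 (GRCm38) and sequence from the GRCm38 RefSeq assembly. The expected number of shared loops is the sum over span ranges of the product of both list sizes divided by the number of anchor pairs within 5 to 2000 kb. Shares have Wilson intervals, ratios of counts exact binomial and observed over expected numbers Poisson intervals, and odds ratios are Mantel-Haenszel over span ranges. The scripts were tested on simulated data and used Python 3.11 with NumPy, pandas, SciPy and networkx. The members and the gene lists were chosen with earlier results of these data known. Named were the 15 members with the highest lower value, the 10 anchors with most members, the 10 with the largest excess over metastasis-line shared loops, the 5 with the highest share among those with 20 or more loops, the 5 fullest windows of 1 Mb, and the leading genes of each list. The 6 list pairs, the single-list odds ratios and the gene counts for Rnf213, Sema3f, Bicdl2 and Cacna1a were added after the data were seen. Alternatives were other start windows, tied values, slack, spans and strata. Some of the named items are not reported here.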

Additional observations from a re-analysis of the deposited data

How the results depend on the processing

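No paired analysis was possible because each group had 1 list covering both replicates, and for the same reason no replicate could be left out. The number of members was 3591 when absence was judged with 5 kb of slack and 556 when both values had to reach the higher tied value of their list. With the higher tied value the ratio to metastasis-line shared loops was 0.845, the median span 868 kb, the share with a promoter anchor 81.5% and the number of anchors with 5 or more members 1. The ratio of observed to expected loops was 1.44 over anchors used in all 4 lists, 1.34 with span ranges split by the loops of the anchors and 1.41 over all anchor pairs. The promoter share was 68.2% with starts inside the anchor only, 85.2% with a window of 5 kb and 69.4% with protein-coding starts only. There were 610 anchors with 3 or more members and 1 with 8 or more. The cause of these shifts was not tested. The odds ratio of a promoter anchor kept its direction under each start window. The unknown depth limits every absence: a loop missing from a list was not listed there, which does not show that the contact was absent.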
